A study of Rattus norvegicus with 160 samples.

Results

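The metabotropic glutamate receptors are G protein-coupled receptors for glutamate, the main excitatory transmitter of the brain. Group I receptors such as Grm5 couple to Gq and phospholipase C and lie mostly on the postsynaptic side. Group II (Grm2, Grm3) and group III receptors (Grm4, Grm6, Grm7, Grm8) couple to Gi/o, lower cyclic AMP and often act as presynaptic brakes on transmitter release. In the amygdala and hippocampus these receptors are known for roles in synaptic plasticity and fear learning.

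The 6 genes described are Grm2, Grm3, Grm4, Grm5, Grm7 and Grm8, chosen by gene symbol. Rows were matched through their RefSeq identifiers, and 4 of the 6 were measured, each by 1 row: Grm4, Grm5, Grm7 and Grm8, of 25902 rows in all. Grm2 and Grm3 had no matched row and were not analysed here, so group II is not covered. The data come from 1-colour NimbleGen arrays of male Sprague-Dawley rats from selectively bred HR and LR lines, which in the field are lines bred for high and low locomotor response to novelty. Amygdala and hippocampus were dissected on postnatal days 7, 14, 21 and 75, labelled P07, P14, P21 and Adult. In each region and age there were 4 rearing groups of 5 arrays, which makes 32 groups and 160 arrays.

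LR-HR rats were LR pups fostered to an HR dam, and LR-LR rats were LR pups fostered to another LR dam. HR rats were HR pups kept with their HR mother, and LR rats were LR pups kept with their LR mother. No drug or transgene was used. The foster comparison (LR-HR minus LR-LR) asks what the line of the foster dam did to LR pups, the line comparison (HR minus LR) sets pups raised within their own line against each other, and the fostering comparison (LR-LR minus LR) asks what being fostered did. In the line comparison both the pup's line and the mother's line differ. The foster and fostering comparisons share the LR-LR arrays, and the line and fostering comparisons share the LR arrays, so their results are not independent. Rearing groups and ages are of different rats. The sample titles do not name the rat, so amygdala and hippocampal arrays may come from the same rats. No label names the litters, so rats of a litter may share a group.

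Values are log2 of the deposited intensities. The regions appeared to have been normalized separately, judged from the transcripts present and the array medians, and each gene has its own probes. Levels were therefore compared neither between regions nor between genes. Amygdala arrays had median intensities of 177.5 to 234.8, and hippocampal arrays had medians of 114 to 130.4. The median correlation of an array with its group was 0.944 in the amygdala and 0.904 in the hippocampus, where 6 arrays were under 0.8. These were P21 LR replicate 5 (0.663, against 0.88 to 0.895 for the other LR arrays) and all 5 P21 LR-LR arrays, which split into replicates 1 to 3 (0.747 to 0.761) and replicates 4 and 5 (0.683 and 0.682). Summed choroid plexus markers in the hippocampus at P21 were 543.8 to 996.3 in HR rats and 622.1 to 19310 in LR rats. The correlations do not show which part of the LR-LR group was unusual. P21 hippocampal results are also given without LR replicate 5 and without LR-LR replicates 4 and 5. The 8 neuron markers with a row lay at the 91.6th to 99.5th percentile of transcripts in the amygdala and at the 88.8th to 99.6th in the hippocampus. Of the defining markers of amygdala neurons 5 of 11 had a row, as had 4 of 11 of those of hippocampal neurons, so the dissections were checked by part of each list only. The summed level of the 5 amygdala markers did not overlap between the groups of any foster, line or fostering comparison at P14, P21 or in adults. It was 8854 to 12150 in LR-HR rats and 5845 to 7841 in LR-LR rats at P14, and 12670 to 14620 in LR-HR rats and 7646 to 10940 in LR-LR rats among adults. In the line comparison at P14 it was 3732 to 6584 in HR rats and 10840 to 14020 in LR rats. The sum did not stand for each marker. At P14, 2 of the 5 rose and 1 fell in the foster comparison at a limma adjusted p under 0.05 (median change -0.54). In the line comparison 1 rose and 3 fell (-0.92), and in the fostering comparison 2 rose and 2 fell (0.37). Of all transcripts 22.3%, 22.8% and 37.7% passed that threshold in these comparisons. The part of these markers in the receptor results was not tested. In whole tissue, fewer cells of a type and less RNA per cell cannot be told apart.

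Promoter windows are shown for Grm5, Grm7 and Grm8, the measured genes for which one was available, and none was available for Grm4. The windows run from 250 bases before to 50 bases after the start site in RefSeq (rat build GRCr8) and were found for 3 of the 4 measured genes. Capitals mark the GC box GGGCGG read on either strand. The Grm5 window is chr1:150733503-150733802 on the plus strand, the Grm7 window chr4:145286476-145286775 on the plus strand and the Grm8 window chr4:57687457-57687756 on the minus strand.
Grm5: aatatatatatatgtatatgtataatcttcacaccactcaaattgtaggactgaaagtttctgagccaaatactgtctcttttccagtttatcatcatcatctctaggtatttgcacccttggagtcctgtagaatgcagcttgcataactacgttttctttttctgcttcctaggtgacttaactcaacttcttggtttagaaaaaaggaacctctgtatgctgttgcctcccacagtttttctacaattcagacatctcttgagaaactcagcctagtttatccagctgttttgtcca
Grm7: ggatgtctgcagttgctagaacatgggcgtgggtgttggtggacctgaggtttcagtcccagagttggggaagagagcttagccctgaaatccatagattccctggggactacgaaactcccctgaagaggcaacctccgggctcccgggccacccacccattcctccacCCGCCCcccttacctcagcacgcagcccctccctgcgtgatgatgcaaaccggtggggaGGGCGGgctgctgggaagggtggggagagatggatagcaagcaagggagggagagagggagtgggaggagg
Grm8: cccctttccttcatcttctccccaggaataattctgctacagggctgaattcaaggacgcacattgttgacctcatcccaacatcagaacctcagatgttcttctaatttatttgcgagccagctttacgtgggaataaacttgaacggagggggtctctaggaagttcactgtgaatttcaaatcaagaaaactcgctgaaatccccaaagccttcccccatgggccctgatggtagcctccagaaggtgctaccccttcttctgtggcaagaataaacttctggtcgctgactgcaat

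The 3 windows had little in common. Grm7 held 2 GC boxes, starting 80 and 21 bases before the start site (positions -80 and -21), while Grm5 and Grm8 held 0. Of 33469 windows of this length, 33.1% held at least 1. The cyclic AMP response element TGACGTCA (in 1.83% of windows) and the TATA box TATAAA (14.2%) were found in none of the 3 windows on either strand. The E-box CANNTG, found in 72.1% of windows, was present at 1 place in each. Grm7 had 9 CpG dinucleotides, Grm8 had 6 and Grm5 had 1, against a median of 7 over all windows. These matches describe letters only.

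At P14 in the amygdala, Grm5, Grm7 and Grm8 were 3.08-fold to 3.31-fold lower in LR-HR than in LR-LR rats. A gene is called here when its Benjamini-Hochberg adjusted p, from limma over all transcripts of the region, is under 0.05. By that rule 3 of the 4 genes fell, and 22.3% of all transcripts were called in the same comparison. The 4 genes lay at the 57.3rd to 84.6th percentile of level in the amygdala, and calls were more frequent among transcripts above the median level. In fits of those transcripts alone the share called was 40.2% at P14, 41.8% at P21 and 37.7% in adults in the foster comparison, and 42.2%, 32.6% and 49.4% in the line comparison. It was 59.5% in the fostering comparison at P14. The shares over all transcripts given beside each count should be read with these. Grm5, the group I receptor of forebrain neurons, had log2 levels of 7.16, 7.42, 7.52, 7.86 and 7.95 in LR-HR rats, against 8.68, 9.50, 9.36, 9.53 and 9.34 in LR-LR rats. The groups did not overlap, and the change was -1.70 (SE 0.31, adjusted p 0.000433). In this comparison 20.4% of all transcripts had groups without overlap, in either direction.

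Grm7, a group III receptor of presynaptic active zones, had 9.37, 9.44, 9.44, 9.71 and 9.50 in LR-HR rats, against 11.08, 11.13, 11.39, 11.37 and 11.13 in LR-LR rats. The change was -1.73 (SE 0.19, adjusted p 2.82e-06), or 3.31-fold lower in LR-HR rats, with no overlap. Grm8, also a presynaptic group III receptor, had 7.67, 7.41, 7.997, 6.84 and 8.36 in LR-HR rats, against 9.24, 9.64, 8.81, 9.04 and 9.66 in LR-LR rats. Its change was -1.62 (SE 0.37, adjusted p 0.00275), again with no overlap. Grm4, the third group III receptor among the 4 genes, averaged 8.29 ± 0.25 in LR-HR rats and 8.79 ± 0.28 in LR-LR rats (SD, n = 5 each), and its change of -0.50 was not called (limma adjusted p 0.0998). With only transcripts above the median level tested, its adjusted p fell just within the threshold (0.05 after rounding).

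The LR-LR level at P14 was also set apart from LR rats kept with their mother. All 4 genes rose in LR-LR relative to LR rats, in a comparison that called 37.7% of all transcripts. Grm5 averaged 9.28 ± 0.34 in LR-LR rats and 7.39 ± 0.49 in LR rats (SD, n = 5 each), a change of 1.89 (SE 0.31, limma adjusted p 6.63e-05). Grm7 averaged 11.22 ± 0.15 in LR-LR rats and 9.31 ± 0.27 in LR rats, a change of 1.91 (SE 0.19, limma adjusted p 2.61e-07). The LR-LR arrays lay above the LR arrays without overlap for Grm4, Grm5 and Grm7. Over all transcripts 25.3% had groups without overlap, in either direction. Grm8 rose by 1.58 (SE 0.37, limma adjusted p 0.00177), with 1 LR array, at 8.87, above the lowest LR-LR array at 8.81. Grm4 rose by 0.72 (SE 0.21, limma adjusted p 0.0112), and under quantile normalization of the arrays its change was 0.47 and its adjusted p 0.0979. Thus LR-LR was the highest of the 4 rearing groups at P14 for each of the 4 genes.

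The line comparison at P14 was smaller. Grm7 was higher in HR rats (9.62, 10.20, 9.85, 10.30 and 9.38) than in LR rats (9.21, 8.99, 9.51, 9.67 and 9.18), and the groups overlapped. Its change of 0.56 (SE 0.19, limma adjusted p 0.0398) was the 1 call among 4 genes, beside 22.8% of all transcripts. It was lost under quantile normalization (limma adjusted p 0.084), with HR and LR alone in the fit (0.147) and in 6 of the 10 fits that left out 1 array, namely LR replicate 1, 2 or 5 (adjusted p 0.0744, 0.107 and 0.0743) or HR replicate 2, 3 or 4 (0.109, 0.0643 and 0.116). Grm5 changed by 0.75 and was not called (limma adjusted p 0.0935). HR replicate 1 was at 6.76 for Grm5 while the other HR arrays lay between 8.29 and 8.63. Without that array Grm5 changed by 1.09 (adjusted p 0.00262), and without LR replicate 5 by 0.93 (adjusted p 0.0419). Grm4 (-0.39) and Grm8 (-0.05) were not called.

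**Figure D1:**
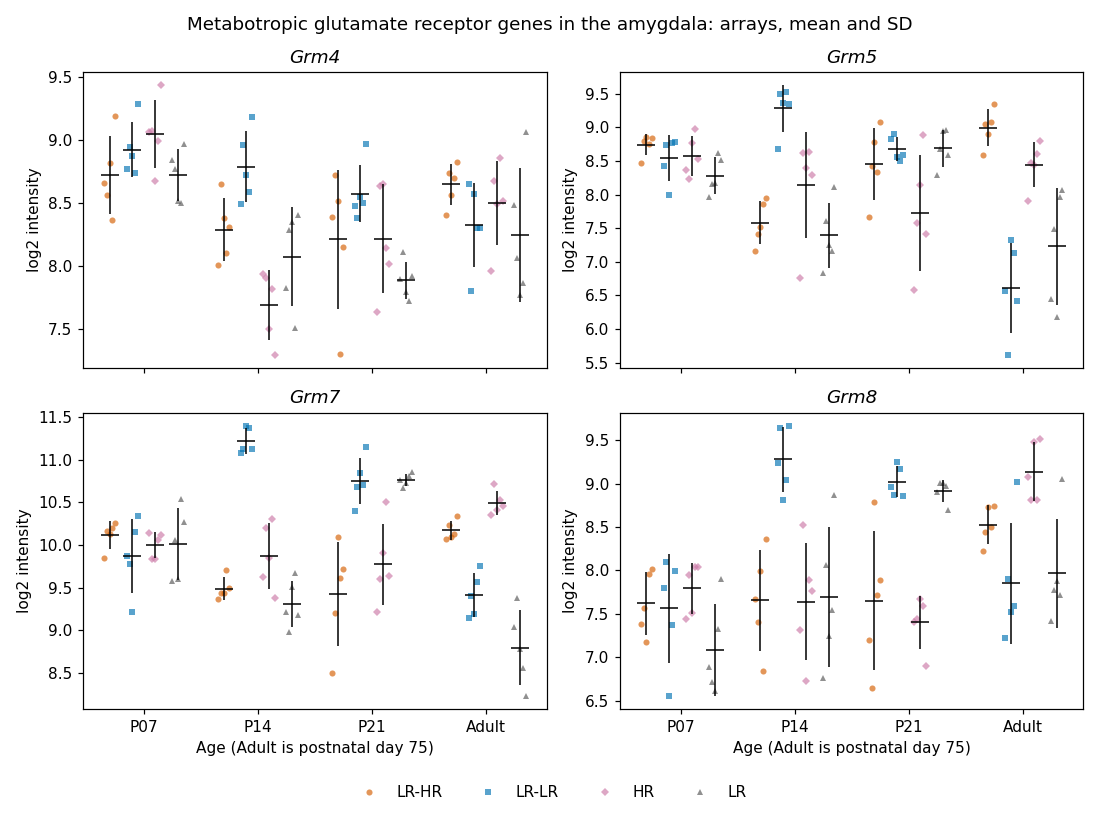
Log2 intensity (vertical axis) of Grm4, Grm5, Grm7 and Grm8 in the amygdala by age (horizontal axis), with 1 symbol per array, a black dash for the mean and a bar for ± 1 SD of 5 arrays, coloured by rearing group. At P14 the Grm7 arrays of LR-HR rats lie between 9.37 and 9.71 and those of LR-LR rats between 11.08 and 11.39, and in adults the Grm5 arrays of LR-HR rats lie between 8.59 and 9.34 and those of LR-LR rats between 5.61 and 7.32.

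At P21 the group III receptors Grm7 and Grm8 were still lower in LR-HR than in LR-LR rats, while Grm4 and Grm5 were not called. These 2 of 4 calls stand beside 21.6% of all transcripts. Grm7 had 8.50, 9.20, 10.09, 9.61 and 9.72 in LR-HR rats, against 10.39, 10.68, 10.84, 10.70 and 11.15 in LR-LR rats, a change of -1.33 (SE 0.26, limma adjusted p 0.00137). Grm8 had 7.20, 6.65, 8.79, 7.71 and 7.89 in LR-HR rats, against 8.96, 8.87, 9.25, 9.17 and 8.86 in LR-LR rats, a change of -1.37 (SE 0.28, limma adjusted p 0.00163). Neither gene's groups overlapped, as was so for 15.6% of all transcripts. Grm5 averaged 8.46 ± 0.53 in LR-HR rats and 8.68 ± 0.18 in LR-LR rats (SD, n = 5 each), with a 95% interval of the change from -0.88 to 0.45. Grm4 changed by -0.36, with an interval from -0.87 to 0.15.

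In the line comparison at P21, Grm5, Grm7 and Grm8 fell in HR relative to LR rats, 3 of 4 genes beside 15.7% of all transcripts. Grm8 had 7.41, 7.44, 7.68, 7.59 and 6.90 in HR rats, against 8.91, 9.002, 9.005, 8.97 and 8.70 in LR rats, a change of -1.51 (SE 0.28, limma adjusted p 0.00166). Grm7 had 9.21, 9.61, 9.90, 10.50 and 9.64 in HR rats, against 10.76, 10.66, 10.72, 10.81 and 10.85 in LR rats, a change of -0.99 (SE 0.26, limma adjusted p 0.0146). Both were below LR in every HR array, and 12.4% of all transcripts had groups without overlap, in either direction. Grm5 spread widely in HR rats (6.58, 7.58, 8.14, 8.89 and 7.41) and overlapped with LR rats (8.29, 8.67, 8.94, 8.96 and 8.59). Its change of -0.97 (SE 0.32, limma adjusted p 0.0427) was lost in 7 of the 10 fits that left out 1 array, of LR replicates 2 to 5 (adjusted p 0.0658 to 0.0941) or HR replicates 1, 2 or 5 (0.0834 to 0.13). It was also lost under quantile normalization (adjusted p 0.139) and with HR and LR alone in the fit (0.0871). In the fostering comparison at P21 no member was called (0 of 4, limma), as for nearly all transcripts (0.0135%). At an unadjusted p under 0.05 the count was 1, Grm4 at 0.69, whose LR-LR arrays (8.38 to 8.97) lay above the LR arrays (7.72 to 8.11). There 1.74% of all transcripts had groups without overlap, and 702 of 22197 had an unadjusted p under 0.05.

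In adults the direction of the foster comparison was the opposite of that at P14. Grm5 and Grm7 rose in LR-HR relative to LR-LR rats, 2 of 4 genes beside 21.7% of all transcripts. Grm5 had 8.59, 9.06, 8.91, 9.07 and 9.34 in LR-HR rats, against 6.57, 5.61, 7.32, 7.13 and 6.42 in LR-LR rats. Every LR-HR array lay above every LR-LR array, and the change was 2.38 (SE 0.35, limma adjusted p 0.000133), or 5.22-fold. How near the LR-LR values lay to background was not checked. The random control sequence of the arrays was compared in the hippocampus only. Groups without overlap, in either direction, were found for 14.2% of all transcripts. Grm7 had 10.08, 10.23, 10.09, 10.13 and 10.34 in LR-HR rats, against 9.14, 9.41, 9.19, 9.57 and 9.75 in LR-LR rats. That change was 0.76 (SE 0.19, limma adjusted p 0.00827), without overlap, and 0.49 under quantile normalization, where it was not called (0.0637).

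Grm8 in adults averaged 8.53 ± 0.22 in LR-HR rats and 7.85 ± 0.70 in LR-LR rats (SD, n = 5 each), a change of 0.68 that was not called (limma adjusted p 0.118). The same-numbered arrays of this comparison deviated together, and with the replicate number as a block the adjusted p was 0.0218, in a fit that called 31.9% of all transcripts. LR-LR replicate 5, at 9.02, lay above all LR-HR arrays, and without it the change was 0.97 (adjusted p 0.0122). Grm4 changed by 0.32 (limma adjusted p 0.342).

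In the adult line comparison Grm5, Grm7 and Grm8 rose in HR relative to LR rats, 3 of 4 genes beside 28.1% of all transcripts. Grm7 had 10.35, 10.72, 10.40, 10.53 and 10.46 in HR rats, against 9.04, 9.38, 8.78, 8.56 and 8.24 in LR rats, a change of 1.69 (SE 0.19, limma adjusted p 3.19e-06) without overlap. Groups without overlap, in either direction, were found for 20.9% of all transcripts. Grm5 averaged 8.44 ± 0.34 in HR rats and 7.23 ± 0.87 in LR rats (SD, n = 5 each), a change of 1.21 (SE 0.35, limma adjusted p 0.0119). Grm8 averaged 9.14 ± 0.34 in HR rats and 7.97 ± 0.63 in LR rats, a change of 1.17 (SE 0.31, limma adjusted p 0.00673), and LR replicate 5 at 9.05 overlapped with the HR arrays. Grm4 changed by 0.25 and was not called. In the adult fostering comparison no member was called (0 of 4, limma), beside 0.658% of all transcripts. Grm7 changed by 0.62 there, the 1 member with an unadjusted p under 0.05, beside 3022 of 22197 transcripts.

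At P07 no member was called in the amygdala in any of the 3 comparisons by limma. The shares of all transcripts called at P07 were 0.0901% (foster), 0.131% (line) and 0.0586% (fostering). Only Grm8 in the line comparison had an unadjusted p under 0.05, beside 2469 of 22197 transcripts. It averaged 7.80 ± 0.29 in HR rats and 7.09 ± 0.53 in LR rats (SD, n = 5 each), a change of 0.71 (limma adjusted p 0.357).

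**Figure D2:**
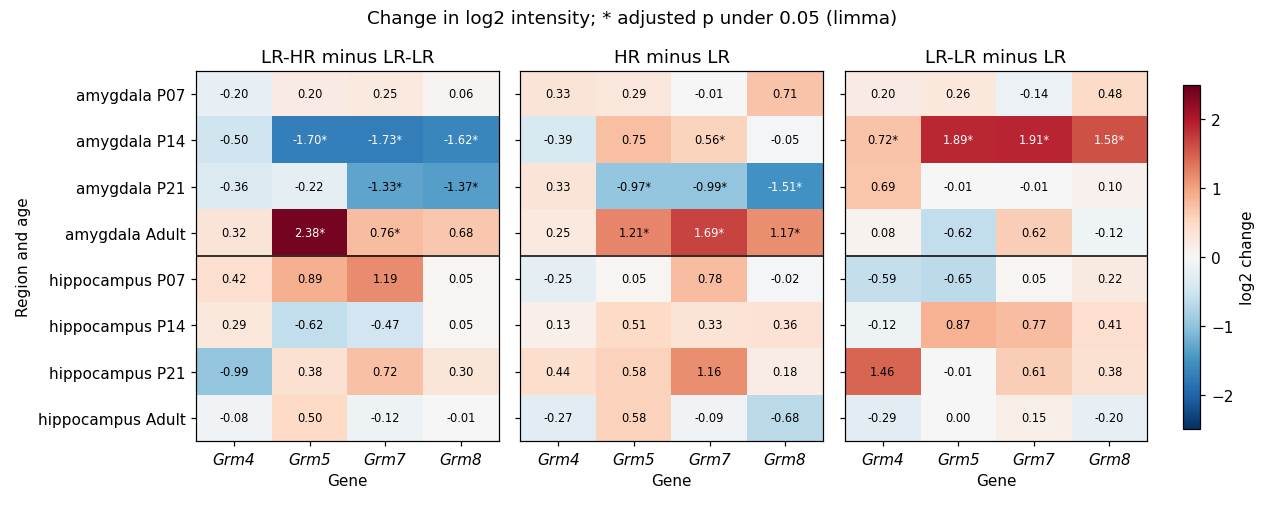
Change in log2 intensity of each gene (columns) in each region and age (rows) for the foster, line and fostering comparisons (panels), coloured from blue (lower) to red (higher), with an asterisk where the limma adjusted p was under 0.05. The amygdala holds all the asterisks, with Grm5 at -1.70 at P14 and 2.38 in adults in the foster comparison, and none is in the hippocampus.

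Whether a comparison differed between ages was tested itself, over the 80 arrays of a region, with an F test on 3 degrees of freedom. In the amygdala the foster comparison differed between ages for Grm5 (F = 29.88, limma adjusted p 6.54e-11), Grm7 (F = 33.57, 8.6e-12) and Grm8 (F = 11.82, 1.9e-05). These 3 of 4 genes stand beside 41.7% of all transcripts. The line comparison differed between ages for the same genes, 3 of 4 beside 41.6% of all transcripts: Grm5 (F = 9.261, limma adjusted p 0.000188), Grm7 (F = 29.17, 9.12e-11) and Grm8 (F = 13.25, 5.97e-06). Grm4 was not called in the foster (adjusted p 0.0928) or the line test (0.113). Without P14 LR replicate 4 or Adult LR replicate 5, the line test of Grm4 gave an adjusted p of 0.0431 or 0.0484. In the hippocampus no member was called in either test (0 of 4 each, limma), beside 4.69% of transcripts for the foster and 0.992% for the line comparison. At an unadjusted p under 0.05 there were 2, Grm5 and Grm7, both in the foster test. That threshold was passed by 4664 of 25897 transcripts in the foster test and by 3159 in the line test.

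Other genes of the glutamate system moved in the same amygdala comparisons, in lists of pathway partners. At P14 in the foster comparison 13 of 24 Gq partners and effectors fell and 0 rose, with a median change of -0.71 against -0.02 over all transcripts and -0.10 over those above the median level. Of all transcripts 13.7% fell. Above the median level 40.2% were called in either direction, and 40.6% of those calls were higher. Gnaq, the Gq alpha subunit, fell by 1.69 on the log2 scale. Of the Gi/o list 11 of 20 fell and 0 rose (median -0.67), led by Prkacb, a catalytic subunit of protein kinase A, at -1.90. Of the release and uptake genes 7 of 12 fell, including the vesicle calcium sensor Syt1 at -1.21, and of the ionotropic receptors 7 of 13 fell, led by the NMDA receptor subunit gene Grin2b at -1.84.

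At P21 in the foster comparison 7 of 24 Gq genes, 11 of 20 Gi/o genes, 8 of 12 release and uptake genes and 7 of 13 ionotropic receptor genes fell, and 1 gene of these lists rose, the potassium channel gene Kcnj9 at 1.12. Of all transcripts 15.5% fell at P21 and 17.2% rose in adults. Above the median level 41.8% were called in either direction at P21, with 23.5% of the calls higher. For adults the share called there was 37.7%, with 87.8% of the calls higher. In adults 12 of 24 Gq genes, 8 of 20 Gi/o genes, 6 of 12 release and uptake genes and 5 of 13 ionotropic receptor genes rose and 0 fell. The neurochondrin gene Ncdn, whose product binds group I receptors, rose by 1.62, and the adenylyl cyclase gene Adcy5 by 1.84. The median changes over all transcripts were -0.15 at P21 and 0.12 in adults, shifts that quantile normalization reduced to -0.05 and 0.02. Over transcripts above the median level they were -0.35 and 0.325, while the medians of the 4 lists were -0.76 to -0.46 at P21 and 0.43 to 0.65 in adults.

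In the line comparison at P14, 9 of 24 Gq genes rose in HR relative to LR rats and 2 fell, and 10 of 20 Gi/o genes rose and 0 fell, where 12.8% of all transcripts rose. In adults 15 of 24 Gq genes rose and 2 fell, with Dlgap1, a postsynaptic scaffold gene of that list, at 1.60. Of the Gi/o genes 14 of 20 rose, and of the ionotropic receptor genes 6 of 13, led by Grin2b at 2.29, where 20.2% of all transcripts rose. At P21, 10 of 24 Gq genes and 8 of 13 ionotropic receptor genes fell, where 11.6% of all transcripts fell. In the fostering comparison at P14, 16 of 24 Gq genes and 16 of 20 Gi/o genes rose and 0 fell, where 24.9% of all transcripts rose. Above the median level the line comparison called 42.2% in either direction at P14, 32.6% at P21 and 49.4% in adults. Higher calls made up 58.9%, 21.2% and 74.7% of these. The fostering comparison at P14 called 59.5% above the median level, and 69.7% of those calls were higher.

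Ribosomal protein genes and markers of neighbouring striatum and of glia changed in these comparisons too. At P14, 18 of 20 ribosomal protein genes rose in LR-HR relative to LR-LR rats, with summed intensities of 135000 to 157300 in LR-HR rats and 63200 to 78610 in LR-LR rats. At P21, 17 of 20 rose. In adults 0 rose and 1 fell, with sums of 101600 to 130000 in LR-HR rats and 104000 to 154000 in LR-LR rats. In the line comparison 20 of 20 fell at P14, 15 of 20 rose at P21 and 17 of 20 fell in adults. In the fostering comparison at P14, 18 of 20 fell. Over all transcripts 8.52% rose at P14, 6.14% rose at P21 and 4.55% fell in adults in the foster comparison. For the line comparison 9.98% fell at P14, 4.03% rose at P21 and 7.88% fell in adults. The fostering comparison at P14 had 12.7% that fell.

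Of the 12 striatum markers, 8 fell in LR-HR relative to LR-LR rats at P14 and 5 at P21, and 9 rose in adults. Their summed intensity at P14 was 11810 to 15950 in LR-HR rats and 28670 to 38830 in LR-LR rats, and in adults 35470 to 50790 in LR-HR rats and 14080 to 20810 in LR-LR rats. Drd2, the dopamine D2 receptor gene, changed by -2.48 at P14 and 2.59 in adults. In the adult line comparison 1 striatum marker rose and 1 fell, with sums of 37630 to 44060 in HR rats and 33120 to 46470 in LR rats. In the fostering comparison at P14, 8 of 12 striatum markers rose, with sums of 28670 to 38830 in LR-LR rats and 12340 to 18770 in LR rats. Of 9 markers of mature oligodendrocytes 8 rose in the line comparison at P14 (median change 2.11), with sums of 29190 to 83140 in HR rats and 5917 to 7996 in LR rats, and 7 of 10 astrocyte markers rose there. Of the oligodendrocyte markers 6 fell in the line comparison at P21, 5 rose in the fostering comparison at P14 and 7 rose in the adult foster comparison. Of 8 neuron markers 3 fell at P14 and 6 rose in adults in the foster comparison. Blood markers summed to 42140 to 51490 in LR-HR rats and 22020 to 28500 in LR-LR rats at P14. Over all transcripts 13.7% fell at P14, 15.5% fell at P21 and 17.2% rose in adults in the foster comparison. For the line comparison 12.8% rose at P14, 11.6% fell at P21, and 20.2% rose and 7.88% fell in adults. The fostering comparison at P14 had 24.9% that rose. The part of these lists in the receptor results was not tested.

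**Figure D3:**
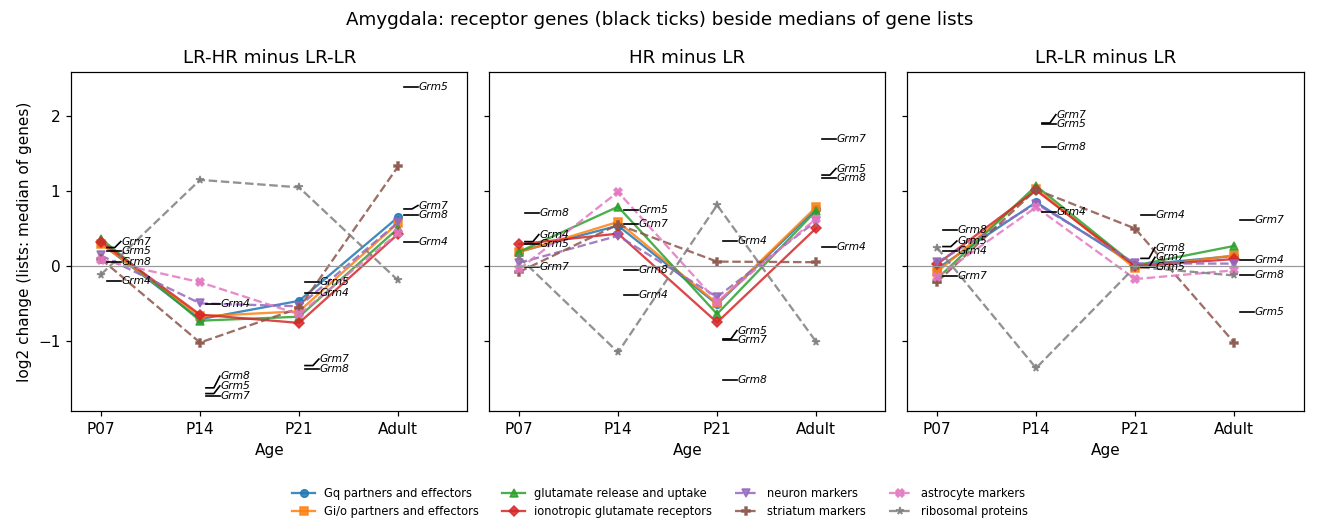
Log2 change in the amygdala (vertical axis) by age (horizontal axis) for the foster, line and fostering comparisons (panels). Black ticks with names are the 4 receptor genes and coloured lines join the medians of the gene lists; in the foster comparison at P14 the Gq list median is -0.71 and the ribosomal protein median 1.15, while Grm7 is at -1.73.

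Averaged over the rearing groups, the 4 genes were called in 5 of 12 steps between ages in the amygdala. From P07 to P14, 3 of 4 genes were called beside 27.6% of all transcripts: Grm4 changed by -0.64 (SE 0.11, limma adjusted p 1.22e-06), Grm5 by -0.44 (SE 0.15, adjusted p 0.0265) and Grm8 by 0.55 (SE 0.16, adjusted p 0.00626). From P14 to P21 no member was called (0 of 4, limma), beside 15.3%. At an unadjusted p under 0.05 the count was also 0, beside 5947 of 22197 transcripts. From P21 to adults Grm5 changed by -0.57 (SE 0.15, limma adjusted p 0.00482) and Grm7 by -0.46 (SE 0.10, adjusted p 0.000621), 2 of 4 beside 19.7%.

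Some of these steps rested on particular rearing groups. Without the LR-LR arrays Grm8 changed by 0.16 from P07 to P14 (limma adjusted p 0.62), and Grm5 by -0.07 from P21 to adults (adjusted p 0.884). Without the LR arrays Grm7 changed by 0.04 from P21 to adults, the opposite sign (adjusted p 0.892), and by -0.17 without the LR-LR arrays (0.486). Grm5 from P07 to P14 was not called without the LR-HR (adjusted p 0.494) or the LR arrays (0.226), or without P14 HR replicate 1 (0.0648). Other steps were called only with a group left out. Without the LR-LR arrays Grm7 changed by -0.49 from P07 to P14 (adjusted p 0.00215), and from P14 to P21 Grm5 changed by 0.59 (0.0216) and Grm7 by 0.43 (0.0102). Without the HR arrays Grm5 changed by 0.52 from P14 to P21 (0.0122). The Grm4 step from P07 to P14 was called in every one of these fits. Grm4 averaged 8.85 ± 0.27 at P07 and 8.21 ± 0.50 at P14 (SD, n = 20 arrays each).

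In order of their level over the 16 amygdala groups, Grm5, Grm7 and Grm8 were each highest in P14 LR-LR rats. The lowest group was Adult LR-LR for Grm5 (6.61 ± 0.67), Adult LR for Grm7 (8.80 ± 0.44) and P07 LR for Grm8 (7.09 ± 0.53; SD, n = 5 each). Grm4 was highest in P07 HR rats (9.05 ± 0.27) and lowest in P14 HR rats (7.69 ± 0.28). Of the 15 pairs of neighbours in this order, 13 differed by less than the smaller SD of the pair, and so not beyond their spread, for Grm4, 13 for Grm5, 10 for Grm7 and 12 for Grm8.

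In the hippocampus no member was called in any of the 12 comparisons (limma). At P07 the shares of all transcripts called were 2.91% (foster), 0.147% (line) and 2.59% (fostering), at P14 0.583%, 2.76% and 1.53%, at P21 0.969%, 0% and 0.0116%, and in adults 0.00386%, 0.0502% and 0%. In the foster comparison at P07 Grm7 had 8.32, 7.67, 8.80, 8.16 and 9.41 in LR-HR rats, against 7.44, 6.40, 6.97, 7.38 and 8.24 in LR-LR rats. The groups overlapped, and the change of 1.19 (SE 0.41) had a limma adjusted p of 0.135. Grm5 had 6.73, 7.37, 7.19, 7.16 and 8.36 in LR-HR rats, against 5.87, 6.01, 6.69, 6.38 and 7.41 in LR-LR rats, a change of 0.89 (SE 0.32, limma adjusted p 0.161).

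Same-numbered arrays deviated together in this comparison, and with the replicate number as a block Grm5 and Grm7 were called (limma adjusted p 0.0107 and 0.00922), in a fit that called 8.74% of all transcripts. Without LR-LR replicate 5, which was the highest LR-LR array for both, Grm5 changed by 1.12 (adjusted p 0.0368) and Grm7 by 1.43 (0.0461). In the fostering comparison at P14 Grm5 and Grm7 were higher in each LR-LR array (6.73 to 8.06 and 7.77 to 8.24) than in any LR array (6.06 to 6.64 and 6.83 to 7.46), with changes of 0.87 and 0.77. Groups without overlap were found for 5.14% of all transcripts. For these 2 genes the adjusted p follows. Neither was called (adjusted p 0.0955 and 0.135), and with the replicate block, where the numbers also paired the arrays, Grm5 was (0.0345), in a fit that called 4.7% of all transcripts. At an unadjusted p under 0.05 there were 2 members at P07 and 1 each at P14 and P21 in the foster comparison, 1 each at P21 and in adults in the line comparison, and 2 at P14 and 1 at P21 in the fostering comparison. Of 25897 transcripts, 3882 at P07, 3040 at P14 and 4608 at P21 passed that threshold in the foster comparison. In the line comparison 1763 did at P21 and 1793 in adults. In the fostering comparison 3441 did at P14 and 2536 at P21.

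At P21 Grm4 had 7.57, 8.45, 6.08, 7.35 and 7.95 in hippocampi of LR-HR rats, against 8.40, 8.64, 9.47, 8.24 and 7.60 in LR-LR rats, a change of -0.99 that was not called (limma adjusted p 0.231). Grm7 in LR-LR rats was at 7.62, 6.51 and 7.11 in replicates 1 to 3 and at 9.47 and 10.10 in replicates 4 and 5. Which part of this split group was unusual was not tested. Without LR-LR replicates 4 and 5 the foster change was -1.35 for Grm4 (adjusted p 0.0456) and 1.81 for Grm7 (0.00556). The fostering change of Grm4 was 1.83 without them (0.0137) and 1.46 with them (0.255). These 2 arrays were left out after seeing the data. The share of all transcripts called without them was not taken, so these calls cannot be set beside it. The foster change of Grm5 was 1.26 without them (adjusted p 0.0576) and 0.38 with them. The fostering change of Grm7 was -0.47 without them and 0.61 with them, the opposite sign, and that of Grm5 was -0.89 and -0.01, none of them called. Without LR replicate 5 no member was called in the line or the fostering comparison at P21 (0 of 4 each), and the line change of Grm7 was 0.97 (adjusted p 0.651) against 1.16 with it.

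Hippocampal Grm8 was near the floor of the array. It lay at or below the random control sequence of the same array, which ran from 5.73 to 6.21 over arrays, in 34 of 80 arrays, against 5 of 80 for Grm5 and 0 for Grm4 and Grm7. Its group means lay between 5.70 ± 0.29 in Adult HR rats and 6.64 ± 0.62 in P21 LR-HR rats (SD, n = 5 each), and background limits what its differences there can show. The other genes ranged over the hippocampal groups from 7.01 to 8.47 (Grm4), from 6.43 to 7.47 (Grm5) and from 7.23 to 8.89 (Grm7). Of the 15 pairs of neighbours in order, 14 of Grm4, 15 of Grm5, 15 of Grm7 and 14 of Grm8 did not differ beyond their spread.

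Over ages, the hippocampal step from P14 to P21 called 1 of 4 genes, beside 20.2% of all transcripts. Grm7 changed by 0.74 (SE 0.22, limma adjusted p 0.011), and averaged 7.59 ± 0.46 at P14 and 8.33 ± 1.05 at P21 (SD, n = 20 arrays each). It was not called without the LR-HR arrays (0.53, adjusted p 0.199) or the HR arrays (0.60, 0.131). No member was called from P07 to P14 (0 of 4, limma, beside 12.1%, and 0 at an unadjusted p under 0.05) or from P21 to adults (0 of 4, limma, beside 15.2%, and 1 at an unadjusted p under 0.05, Grm4 at -0.46). Of 25897 transcripts, 6036 had an unadjusted p under 0.05 from P07 to P14 and 7395 from P21 to adults. Without the LR-LR arrays Grm5 changed by -0.54 from P07 to P14 (adjusted p 0.0476), and Grm4 by -0.73 from P21 to adults without the LR arrays (0.031).

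**Figure D4:**
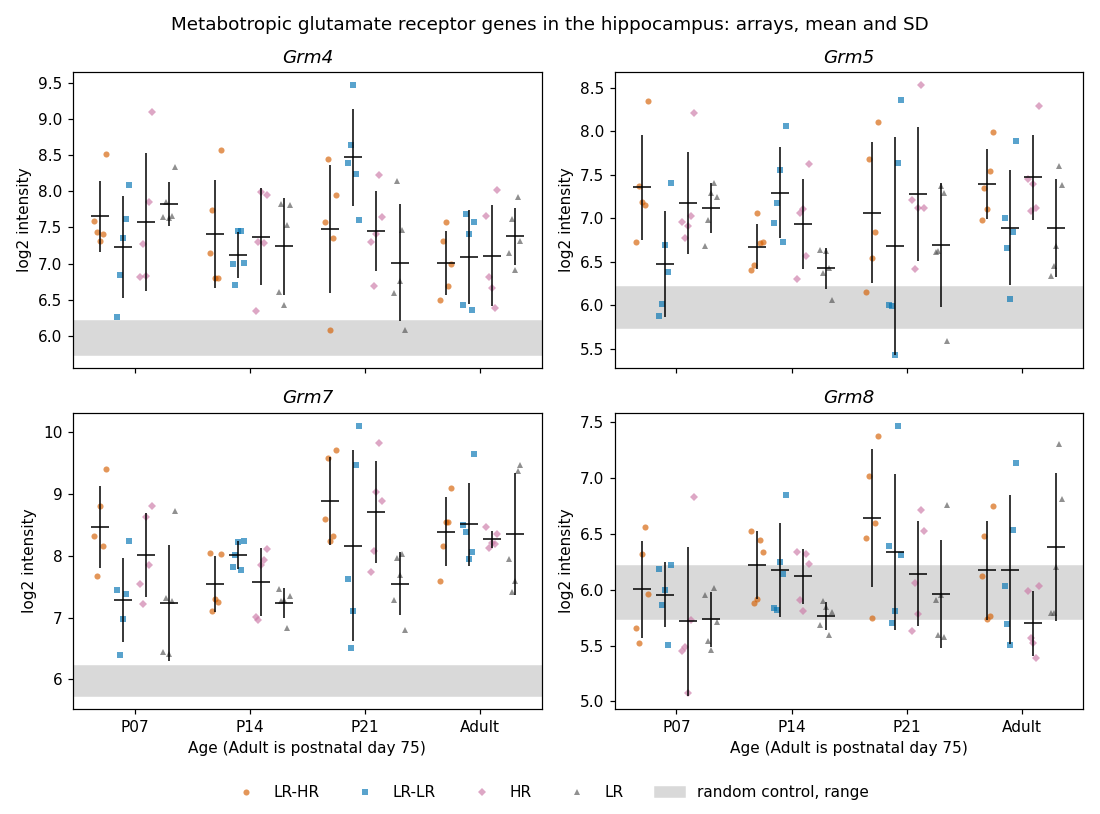
Log2 intensity (vertical axis) of the 4 genes in the hippocampus by age (horizontal axis), drawn as for the amygdala, with the range of the random control over 80 arrays as a grey band from 5.73 to 6.21. Grm8 lay at or below the control of its own array in 34 of 80 arrays, and the P21 LR-LR arrays of Grm7 hold 3 values between 6.51 and 7.62 and 2 at 9.47 and 10.10.

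In the hippocampus the pathway lists had calls at P07, P14 and P21. In the foster comparison at P07, 5 of 24 Gq genes, 5 of 20 Gi/o genes, 4 of 12 release and uptake genes and 2 of 13 ionotropic receptor genes rose and 0 fell, with list medians of 0.62, 0.585, 1.07 and 0.51. In the fostering comparison at P07, 3 of 24 Gq genes, 3 of 20 Gi/o genes and 2 of 12 release and uptake genes fell and 0 rose. At P14, 1 Gq gene, 1 Gi/o gene and 3 release and uptake genes fell in the foster comparison, and 1 Gq gene, 2 Gi/o genes, 2 release and uptake genes and 1 ionotropic receptor gene rose in the fostering comparison. At P21, 2 Gq genes, 1 Gi/o gene and 1 release and uptake gene rose in the foster comparison. Of all transcripts 2.22% rose in the foster comparison at P07, and 0.683% fell in the fostering comparison at P07. At P14 the shares were 0.51% that fell in the foster comparison and 1.1% that rose in the fostering comparison. At P21 0.9% rose in the foster comparison. No gene of these 4 lists was called in the line comparison at any age.

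The genes most like each receptor, by the Pearson correlation of log2 group means over the 16 groups of a region, are given as a description, among 7988 named genes in the amygdala and 9499 in the hippocampus. The groups share ages, rearing and normalization. In the amygdala the closest were Shroom2 (0.963) and Klhl7 (0.924) for Grm5, and Ptprk (0.974) and Wars1 (0.962) for Grm7. For Grm8 they were Slc4a4 (0.942) and Cntn4 (0.94), and for Grm4 Dlx5 (0.885) and Rhov (0.856). In the hippocampus they were Polr2m (0.856) and Tcp1 (0.844) for Grm5, and Stx1a (0.931) and Dlg3 (0.928) for Grm7. For Grm4 they were Pfn4 (0.878) and Calcrl (0.852), and for Grm8 Vgf (0.885) and Rgs4 (0.82). Among the receptors in the amygdala the correlation was 0.787 for Grm5 with Grm7, 0.714 for Grm7 with Grm8 and 0.466 for Grm5 with Grm8. For Grm4 it was 0.438 with Grm5, 0.296 with Grm7 and 0.06 with Grm8.

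Grm6, a group III receptor known from retinal bipolar cells and not among the 6 genes, was not called in any amygdala or hippocampal comparison within an age, and its foster change at P14 in the amygdala was 0.38 (limma adjusted p 0.509).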

How the data were processed

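Amygdala and hippocampus of male rats were profiled on 160 1-colour arrays. The deposited intensity values are linear. The submitters' processing notes name RMA, without a version. Here their log2 was taken with no pseudocount or filter. Separate normalization of each region was inferred from the array medians and the transcripts present: 22197 transcripts had amygdala values and 25897 hippocampal values. Symbols came from RefSeq identifiers. Limma 3.58.1 in R 4.3.3 was fitted to 20 arrays at a time, all of 1 region and age, with the 4 rearing groups as terms (foster, line and fostering comparisons), and to the 80 arrays of a region for steps between ages and for tests of a comparison by age. P-values were adjusted by Benjamini-Hochberg over all transcripts of the region, and the fits were tested on simulated data. Figures were drawn with matplotlib 3.10.9 in Python 3.11.15. The number of arrays limits the precision. No label or header names slides or scan dates, and no batch was modelled. No 2 arrays were identical, and 0 columns of other samples were present. All 6 members were to be named, with the 2 genes most like each and, from the lists, those with the largest or smallest changes. Members and lists were chosen with earlier results of these data known. Same-numbered replicates were checked for pairing by the correlation of their deviations from the group means. All 5 pairs were over 0.1 in 8 of 24 comparisons: amygdala P07 line and fostering, amygdala Adult foster and fostering, hippocampus P07 foster and fostering, hippocampus P14 fostering and hippocampus Adult foster. Alternatives were quantile normalization, a trended robust prior, the replicate block, 2 groups in the fit, a filter on low levels, and fits without arrays or rearing groups.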

Additional observations from a re-analysis of the deposited data

Results flagged for a closer look

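In 7 groups 1 array lay far from the other 4 of their group, by Dixon's test, among 128 groups of a gene, region, age and rearing group, of which chance would give about 1 in 20. In the amygdala these were Grm4 in P21 LR-LR replicate 5 (8.97, nearest 8.55), Grm5 in P07 LR-HR replicate 1 (8.47, nearest 8.75), Grm5 in P14 LR-LR replicate 1 (8.68, nearest 9.34), Grm5 in P14 HR replicate 1 (6.76, nearest 8.29) and Grm8 in Adult LR replicate 5 (9.05, nearest 7.88). In the hippocampus they were Grm4 in P07 LR-HR replicate 5 (8.52, nearest 7.58) and Grm5 in P07 HR replicate 5 (8.21, nearest 7.03). All values are log2 intensities. Results that change without such an array are given with the comparison.

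In the amygdala the foster comparison differed between the 4 ages by the test of that difference for Grm5 (F = 29.88), Grm7 (F = 33.57) and Grm8 (F = 11.82), and the line comparison for Grm5 (F = 9.261), Grm7 (F = 29.17) and Grm8 (F = 13.25). The foster changes of Grm5 were 0.20, -1.70, -0.22 and 2.38 at P07, P14, P21 and in adults, and its line changes 0.29, 0.75, -0.97 and 1.21.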

How the results depend on the processing

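Of 30 called results of single genes, 1273 of 1302 values under other settings kept direction and call, 28 lost the call and 1 reversed. Of 106 that were not called, 3556 of 3579 stayed so and 23 passed. The reversal was Grm7 from P21 to adults in the amygdala with the LR arrays left out (0.043). The amygdala counts of called genes were 7 in the foster comparison (6 to 8 under other settings, 7 to 8 with 1 array left out), 7 in the line comparison (5 to 8, and 6 to 8) and 4 in the fostering comparison (3 to 4). Age steps gave 5 in the amygdala, 2 with the LR arrays left out, and 4 to 5 with 1 array left out. In the hippocampus, age steps gave 1, which became 0 with the LR-HR or the HR arrays left out, 2 with the LR-LR or the LR arrays left out, and 1 to 2 with 1 array left out. The hippocampal foster count of 0 was 2 with the replicate block, 2 at P21 without both LR-LR replicates 4 and 5, and 0 to 2 with 1 array left out (2 without P07 LR-LR replicate 5). The hippocampal fostering count of 0 was 1 with the replicate block and 1 without both LR-LR replicates. Quantile normalization moved the share of higher calls among all amygdala transcripts called to 44.8%, against 28.4% as deposited, in the foster comparison at P21, to 47.7% against 25.7% in the line comparison at P21, to 64.8% against 79.0% in the adult foster comparison, and to 58.6% against 71.9% in the adult line comparison. In the hippocampal fostering comparison at P07 it gave 63.1% against 73.6%, in the amygdala at P07 61.8% against 82.8% (line) and 35.7% against 46.2% (fostering), and in the adult hippocampus 66.7% against 53.8% (line) and 33.3% against 100% (foster). Counts of all transcripts called moved by over 1.5 times to 2242 against 3479 (amygdala P21 line), 223 against 146 (amygdala Adult fostering), 28 against 13 (amygdala P07 fostering), 148 against 251 (hippocampus P21 foster), 21 against 13 (hippocampus Adult line) and 3 against 1 (hippocampus Adult foster). The replicate block moved such counts further, for example to 404 against 20 (amygdala P07 foster), 665 against 38 (hippocampus P07 line) and 2263 against 754 (hippocampus P07 foster). The cause of these changes was not tested. In comparisons where the numbers did not pair the arrays, the replicate block changed 1 call, Grm5 in the amygdala line comparison at P14 (0.75, adjusted p 0.0222). Fits without each array in the age steps, and without both LR-LR replicates, were chosen after seeing the data. For fits without arrays or rearing groups, the share of all transcripts called was not taken. Averaging the rows of a gene was not run, since each measured gene has 1 row. The number of arrays limits small changes, and hippocampal Grm8 was close to background.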
